A study of Sus scrofa domesticus with 4 samples.

Results

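The genes described here encode proteins of the mitochondrial respiratory chain and of ATP synthase. They were taken by name: every probe of the array (control spots left out) whose RefSeq accession belonged to a pig gene with a symbol starting with NDUF, SDH, UQCR, ATP5, CYC1, CYCS, or COX followed by 4 to 8. That gave 111 of 43603 probes, standing for 28 of the 3029 genes that carried a symbol. Of these genes 27 could be tested among 18852 features, with 109 of their probes well above background. Both probes of the remaining gene, COX8H, stayed dim. No gene whose symbol starts with CYC1 was among the named probes, and 0 of the 13 chain subunits encoded by mitochondrial DNA were, so all 27 genes are nuclear.

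The RNA came from the anterior lobe of the pituitary of gilts, young female pigs of the cross Large White x Polish Landrace. The pregnant group (n = 4) had been naturally bred and was killed on days 15 to 16 of pregnancy, with conceptuses present, and the cyclic group (n = 4) on days 15 to 16 of the estrous cycle. An array carried 1 animal of each group, so each of the 4 two-colour arrays gives 1 independent ratio of pregnant over cyclic. By the label fields of the samples the pregnant animal had the dye Cy3 (green) on arrays 1 and 3 and Cy5 (red) on arrays 2 and 4. The text of the labelling protocol names 1 orientation for all arrays instead. The label fields were followed, as the ratios in the authors' deposited value table also do, and values for the other reading are given where they matter. The arrays compare whole tissue, in which fewer cells of a type and less RNA per cell cannot be told apart. Nothing was saturated (0 spots), and between 50.4% and 66.5% of the spots of a channel were well above background. Array 1 held both extremes, with 50.4% in its pregnant and 66.5% in its cyclic channel. Hormone genes that define the anterior lobe, GH1, PRL, POMC, LHB, FSHB, CGA and TSHB, were well above background in all 8 channels. So was OXT, a hormone of the neurons that reach the posterior lobe, at -0.67, -0.62, 0.025 and -0.16 on arrays 1 to 4, and its part in the ratios below was not tested.

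The respiratory chain takes electrons from NADH at complex I and from succinate at complex II, and passes them through ubiquinone to complex III, through cytochrome c to complex IV, and on to oxygen. Complexes I, III and IV pump protons across the inner mitochondrial membrane, and ATP synthase, complex V, uses their return to make ATP. The subunits of a complex are needed in fixed proportions, and most are encoded in the nucleus. Hormone-producing cells depend on this supply for peptide synthesis and for regulated secretion. In the pituitary ATP also feeds the ion pumps that electrically active cells rely on.

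Respiratory chain genes differed little between the pregnant and the cyclic gland, and none passed the test after adjustment. Each ratio is the log2 of the pregnant over the cyclic signal, fitted with limma over 4 arrays beside a dye effect of each gene, with the standard error (SE) of that fit. The 27 fitted ratios ran from -0.19 (NDUFA4) to 0.34 (SDHD), and 26 of them lay within 0.20 of 0. Their median was -0.038, against -0.018 over all features. Estimates below 0 numbered 19 of 27, where 54.3% of all features were below 0. The 95% intervals of the fit lay between -0.53 and 0.58 over the 27 genes, each read from its brightest probe. A change of 1.5-fold or more in either direction was outside the interval of each of these probes, for SDHD by little (upper bound 1.498-fold). No interval is given for the other probes, whose fitted ratios ran from -0.39 (ATP5E) to 0.25 (COX6B). These intervals rest on a variance moderated across features and on the dye effect being taken out. Fitted without the dye effect, 24 of 27 intervals lay within 1.5-fold, and the exceptions were SDHD (upper bound 0.59), ATP5G3 (upper bound 0.63) and UQCRB (lower bound -0.62). Intervals under the other processing alternatives are not given.

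By limma with Benjamini-Hochberg adjustment over all features, 0 of the 27 genes passed an adjusted p of 0.05, as did 0 features in all (0% called). The adjusted p of the members ran from 0.647 to 0.988. At an unadjusted p under 0.05 there was 1 member, SDHD, on the higher side, where 3.03% of all features were called higher. On the lower side there were 0 members, where 4.18% of all features were called lower. The members' share of 1 in 27 was not above the background of 7.21% called in either direction. SDHD was also the 1 member above 0 on 4 of 4 arrays, where 6.42% of features were. The 2 members below 0 on 4 of 4 arrays were NDUFA4 and COX6B, beside 7.43% of features. Together these 3 of 27 members had 1 sign on all arrays, and 13.9% of all features did. Replicate numbers name the arrays, and nothing in the labels pairs animals beyond the shared array.

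**Figure D1:**
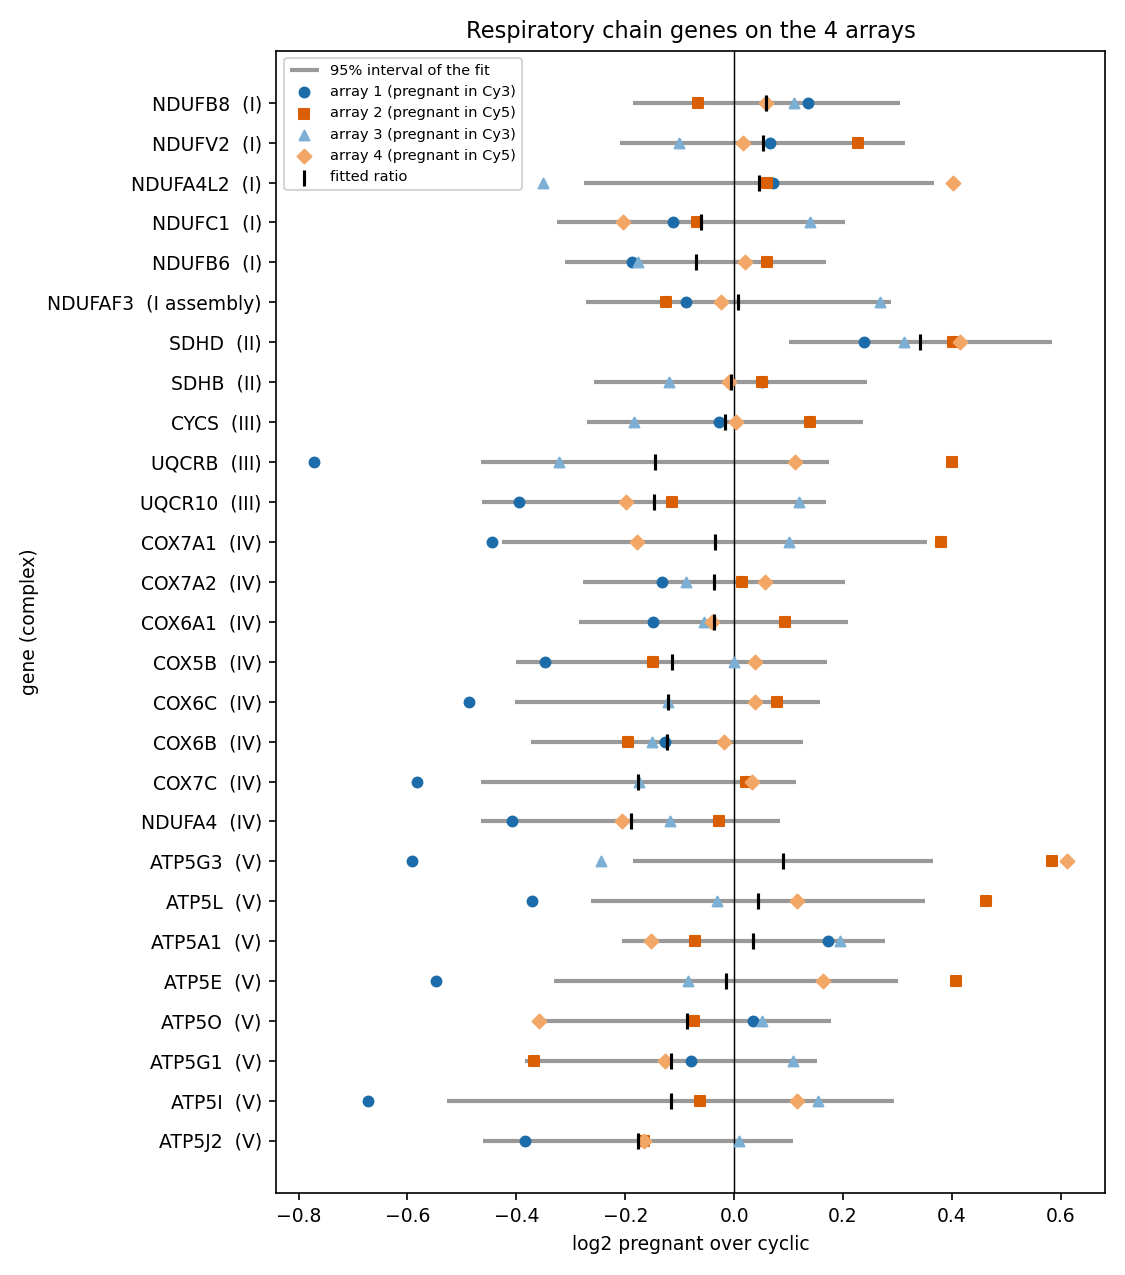
Each line is 1 of the 27 tested genes, with its complex in brackets. Symbols give the log2 ratio of pregnant over cyclic on each of the 4 arrays, the black bar the fitted ratio and the grey line its 95% interval. SDHD is the gene whose interval lies above 0, and the blue symbols of array 1 lie far to the left for UQCRB, ATP5I, ATP5G3 and COX7C.

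Complex I is the largest of the chain's enzymes and the entry point of electrons from NADH. Grouped with it by name were 5 tested genes. NDUFV2, an iron-sulfur subunit of the part that meets NADH, stood at 0.067, 0.23, -0.10 and 0.017 on arrays 1 to 4, with a fitted ratio of 0.053 ± 0.10. NDUFB8, an accessory subunit of the membrane arm, stood at 0.14, -0.066, 0.11 and 0.058, with a fitted ratio of 0.059 ± 0.096. The arrays of each of these genes lay on both sides of 0, with 3 of 4 above it. All 5 probes of NDUFV2 were below 0 on array 3, and 4 of 5 were above 0 on arrays 1 and 2. NDUFB6, another accessory subunit of the membrane arm, was at -0.19, 0.061, -0.18 and 0.020 and NDUFC1, also of that arm, at -0.11, -0.068, 0.14 and -0.20. Their fitted ratios were -0.071 ± 0.094 and -0.061 ± 0.10. NDUFB6 was below 0 on both arrays with the pregnant animal in Cy3 and above 0 on both others, and NDUFC1 was above 0 on array 3 alone. The smallest unadjusted p of the 5 genes was 0.485 for NDUFB6 (limma, adjusted p = 0.833).

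NDUFA4L2 is a relative of NDUFA4 whose transcript is known to rise under low oxygen. NDUFA4 is given with complex IV below, while NDUFA4L2 was placed with complex I by its symbol alone. NDUFA4L2 was at 0.072, 0.060, -0.35 and 0.40, the widest range of the complex I group, and its fitted ratio was 0.046 ± 0.13. The 1 other probe of NDUFA4L2 stood at -0.097, so the sign of this gene was not shared between probes. NDUFAF3, an assembly factor of complex I and no subunit of the finished enzyme, had ratios of -0.089, -0.12, 0.27 and -0.024 and a fitted ratio of 0.0075 ± 0.11. Array 3 was the 1 array above 0 for NDUFAF3, as it was for NDUFC1. The median of the 5 genes grouped with complex I was 0.046, which is the value of NDUFA4L2 itself. Their medians on arrays 1 to 4 were 0.067, 0.060, -0.10 and 0.020.

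Complex II, succinate dehydrogenase, is shared by the respiratory chain and the citric acid cycle, and it pumps no protons. SDHD encodes a small membrane anchor that helps to bind ubiquinone. Its brightest probe was at log2 intensities of 12.14, 11.98, 11.99 and 12.33 in the pregnant animals of arrays 1 to 4. The cyclic animals on the same arrays were at 11.90, 11.57, 11.68 and 11.92. The pregnant animal was the higher of the pair on 4 of 4 arrays, as for 6.42% of all features. Intensities were normalized within each array only, so levels are compared within a pair and not across arrays. The ratios were 0.24, 0.40, 0.31 and 0.41, and the fit gave 0.34 ± 0.095, with an interval of 0.10 to 0.58. The unadjusted p was 0.0145, and the adjusted p over all features was 0.647 by limma.

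The other 4 probes of SDHD did not repeat that pattern. They were above 0 on arrays 1 and 2 in 4 of 4 cases, with medians of 0.23 and 0.39, close to the brightest probe. On array 3 all 4 were below 0, from -0.30 to -0.054, where the brightest probe was at 0.31. On array 4 they lay between -0.40 and 0.058, where the brightest probe was at 0.41. Fitted one by one, these 4 probes had ratios from 0.067 to 0.11, with unadjusted p from 0.436 to 0.690 by limma. The mean over all 5 probes stood at 0.13 (unadjusted p = 0.323 by limma). The value of 0.34 is therefore that of 1 probe. Its unadjusted p was 0.0597, 0.0820 and 0.0523 without arrays 1, 3 and 4, at ratios of 0.36, 0.32 and 0.34. Read with 1 dye orientation for all arrays, the same probe stood at -0.066.

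SDHB, the iron-sulfur subunit of the same complex, gave 0.051, 0.052, -0.12 and -0.0097 and a fitted ratio of -0.0067 ± 0.098. Its 7 probes had fitted ratios between -0.15 and 0.0057. On array 3 SDHB had 6 of 7 probes below 0, and SDHD had 4 of 5. With 2 genes measured the median of complex II is the midpoint of both, 0.17, and it describes no shared shift.

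**Figure D2:**
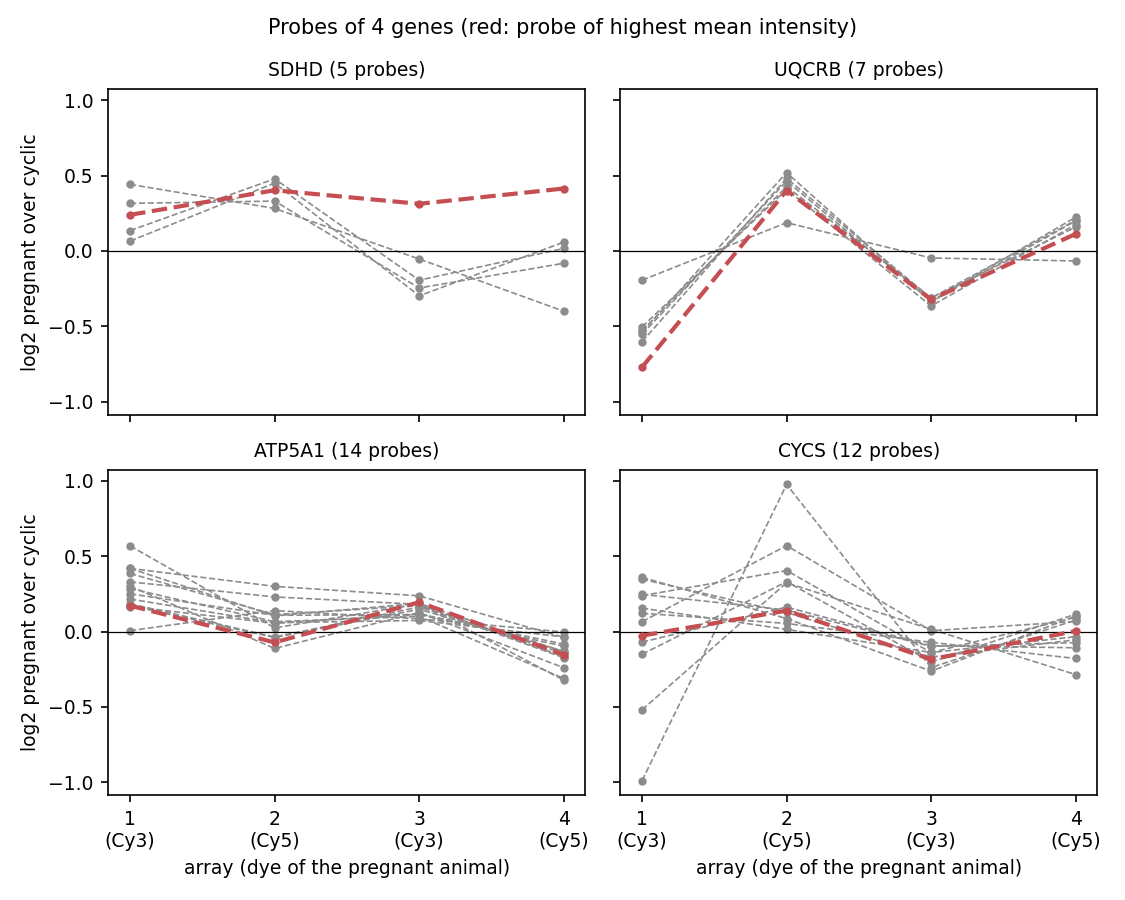
The log2 ratio of pregnant over cyclic is plotted for every kept probe of SDHD, UQCRB, ATP5A1 and CYCS on each array, with the dye of the pregnant animal in brackets. Dashed lines join the values of 1 probe and red marks the probe of highest mean intensity. The red probe of SDHD leaves the others on arrays 3 and 4, while the probes of UQCRB and ATP5A1 move together.

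Complex III passes electrons from ubiquinol to cytochrome c. UQCRB, a small subunit at the ubiquinone site, had log2 intensities of 13.58, 14.25, 13.50 and 13.97 in the pregnant animals and 14.35, 13.85, 13.82 and 13.86 in the cyclic ones. Its ratios were -0.77, 0.40, -0.32 and 0.11, so the animal in Cy5 was the higher of the pair on every array. The 7 probes of UQCRB gave a similar pattern, with medians of -0.54, 0.43, -0.32 and 0.17. The standard deviation between arrays, averaged over its probes, was 0.43, and that between its probes, averaged over arrays, was 0.12. The fitted dye effect was 0.40 for log2 red over green, and the fitted ratio of pregnant over cyclic was -0.15 ± 0.13. This SE is what remains after the dye effect and stands beside a standard deviation of 0.51 between the 4 turned ratios.

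UQCR10, a small accessory subunit of complex III, gave -0.40, -0.11, 0.12 and -0.20, with array 3 alone above 0 and a fitted ratio of -0.15 ± 0.12. CYCS, cytochrome c itself, carries electrons from complex III to complex IV and is also the signal that starts apoptosis when it leaves the mitochondrion. CYCS was at -0.027, 0.14, -0.18 and 0.0037, and the fit gave -0.017 ± 0.099. Of its 12 probes 7 had a fitted ratio above 0 and 5 below it, from -0.12 to 0.18. All 12 were above 0 on array 2 and 10 of 12 below 0 on array 3. Probes of CYCS can share sequence with copies of this gene, and which transcripts each probe meets was not examined. All 3 genes of this group had a fitted ratio below 0, with a median of -0.15. The medians by array were -0.40, 0.14, -0.18 and 0.0037, with array 1 low and array 2 above 0. On the 2 arrays with the pregnant animal in Cy5 alone, the median of the group was 0.071.

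Complex IV, cytochrome c oxidase, reduces oxygen, and its catalytic core is encoded by mitochondrial DNA. The 8 tested genes encode nuclear subunits around that core. NDUFA4, named for complex I but known as a subunit of complex IV, had ratios of -0.41, -0.027, -0.12 and -0.21 and a fitted ratio of -0.19 ± 0.11, with an unadjusted p of 0.137 by limma. It was below 0 on 4 of 4 arrays. Its other 5 probes were also below 0 in the fit, from -0.28 to -0.096, and 1 of them had an unadjusted p of 0.0392. On array 2, however, 4 of those 5 were above 0, with a median of 0.28.

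COX7C, a small membrane subunit, gave -0.58, 0.021, -0.17 and 0.033 and a fitted ratio of -0.18 ± 0.11. COX6C, another small membrane subunit, gave -0.49, 0.080, -0.12 and 0.039 and -0.12 ± 0.11. COX5B, which binds zinc on the matrix side, gave -0.35, -0.15, -0.00077 and 0.037 and -0.11 ± 0.11. In all 3 of these genes array 1 was the lowest and array 4 was above 0, and their other 2 probes each shared the sign of the fit. COX6B, which lies on the side of the intermembrane space, was below 0 on 4 of 4 arrays, at -0.13, -0.20, -0.15 and -0.019, with -0.12 ± 0.098. Its 1 other probe went the opposite way, at 0.25.

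Some subunits of complex IV exist as pairs of isoforms, one found in most tissues and one in heart and skeletal muscle. COX6A1, of the widely expressed kind, was at -0.15, 0.094, -0.056 and -0.040, with -0.038 ± 0.097. COX7A2, also of that kind, was at -0.13, 0.015, -0.088 and 0.057, with -0.037 ± 0.095. Both stayed within 0.088 and 0.10 (standard deviation, COX7A2 and COX6A1) over 4 arrays, and each had 5 probes. COX7A1, the muscle kind, was well above background in all 8 channels and varied more, at -0.44, 0.38, 0.10 and -0.18, with -0.035 ± 0.15. COX8H, also a muscle kind, had 2 probes, which were well above background in 2 and 0 of the 8 channels. It was not tested, and no fold is given because most channels were not well above background. The striated muscle markers MYH7, CKM and ACTA1 were 3 of 3 above background in all 8 channels. MYH7 stood at 0.30 ± 0.11, CKM at -0.42 ± 0.16 and ACTA1 at -0.14 ± 0.15, each by its brightest probe. In that order, 6 of 6, 4 of 10 and 5 of 16 kept probes had a fitted ratio above 0. The part of these markers in the values of COX7A1 was not tested.

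All 8 complex IV genes had a fitted ratio below 0, with a median of -0.12, where 54.3% of all features were below 0. By array the medians were -0.38, 0.018, -0.10 and 0.0070. On array 1 all 8 genes were below 0, on array 2 there were 3, on array 3 there were 7, and on array 4 there were 4. Without array 1 the median was -0.030, and it was 0.027 on the 2 arrays with the pregnant animal in Cy5. With normexp background parameters estimated from all spots it stood above 0, at 0.036, with 3 of 8 genes below 0. The estimated background spread then ran from 3.50 to 6438.6, against 1.17 to 2.51 in the main fit. In that setting 12 of the 27 members changed sign. No member of the complex passed the unadjusted threshold.

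**Figure D3:**
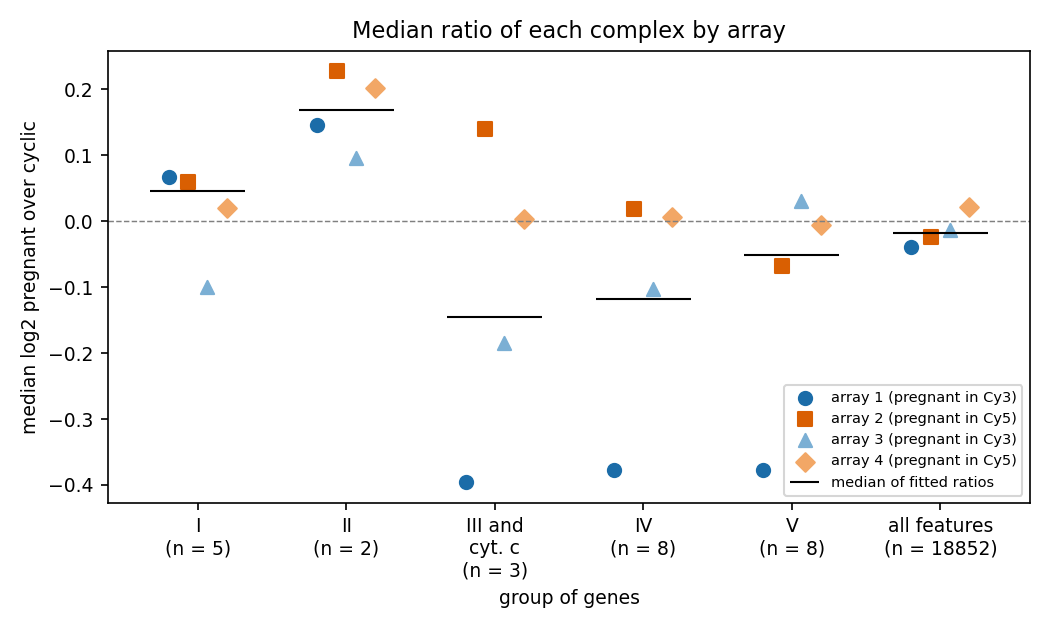
The median log2 ratio of pregnant over cyclic of each complex is plotted for each of the 4 arrays, with the median over all 18852 features at the right, and black bars mark the median of the fitted ratios. Array 1 is low for complexes III, IV and V, at -0.40, -0.38 and -0.38, and not for complexes I and II.

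Complex V, ATP synthase, has a catalytic head, a rotor and a stalk that holds the head still, and 8 of its genes were tested. ATP5A1 encodes the alpha subunit of the head. It was at 0.17, -0.072, 0.19 and -0.15, with a fitted ratio of 0.035 ± 0.095, and its 14 probes had fitted ratios from 0.019 to 0.23, all above 0. All 14 probes were above 0 on arrays 1 and 3 and all 14 below 0 on array 4. ATP5O, the part of the stalk that grips the head, was at 0.035, -0.074, 0.052 and -0.36, with -0.086 ± 0.10. All 10 probes of ATP5O were below 0 in the fit and on array 4, and 8 of 10 on array 1, where its brightest probe was above 0.

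The rotor is represented by 3 genes. ATP5E, the epsilon subunit of the central shaft, was at -0.55, 0.41, -0.086 and 0.16, with -0.015 ± 0.12. Its 1 other and dimmer probe was below 0 on 4 of 4 arrays, with a fitted ratio of -0.39 and an unadjusted p of 0.0161 by limma. ATP5G1 and ATP5G3 encode the same subunit of the rotor's membrane ring from separate genes. ATP5G1 gave -0.078, -0.37, 0.11 and -0.13, with -0.12 ± 0.11, and ATP5G3 gave -0.59, 0.58, -0.24 and 0.61, with 0.090 ± 0.11. ATP5G3 had the widest range of all members, and red was above green on every array. Each gene had 1 probe, and whether these probes also meet each other's transcript was not examined.

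The remaining genes encode small subunits of the membrane part of ATP synthase. ATP5J2 was at -0.38, -0.17, 0.0091 and -0.17, with -0.18 ± 0.11, the lowest fitted ratio of complex V. ATP5I was at -0.67, -0.063, 0.15 and 0.12, with -0.12 ± 0.16, where array 1 was far below the other 3 arrays. ATP5L was at -0.37, 0.46, -0.031 and 0.11, with 0.044 ± 0.12, from its 1 probe. The median of the 8 genes was -0.051, with 5 below 0 and 3 above. By array the medians were -0.38, -0.067, 0.030 and -0.0061, and the median of the fit was 0.066 without array 1 and 0.015 without array 4.

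Array 1 stood lowest for the members. Its median over the 27 genes was -0.15, with 20 below 0, against 0.021, -0.056 and 0.017 on arrays 2 to 4, where 12, 16 and 12 genes were below 0. Over all features the medians were -0.039, -0.024, -0.014 and 0.022. Many members are bright, and 866 other features at a mean log2 intensity of at least 13.5 (the members' lower quartile) had medians of -0.13, -0.0071, 0.053 and 0.040. The low values on array 1 thus came with a low median of bright features on that array and with its unequal share of spots above background, and their part in the result was not tested. The correlation of the turned ratios across the 27 members, which share arrays and dyes, was highest between arrays 2 and 4, at 0.60, and lowest between arrays 3 and 4, at -0.33.

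One direction of red over green on all arrays was more frequent among the members than one direction of pregnant over cyclic. Red was above green on 4 of 4 arrays for 9 of 27 members, where 12% of all features and 16.6% of the other bright features had that pattern. These 9 were UQCRB, CYCS, NDUFB6, COX7C, COX6C, COX7A2, ATP5G3, ATP5L and ATP5E. The dye effect was above 0 for 20 of 27 members, including 8 of 8 in complex IV, with a median of 0.069 for log2 red over green against 0.0079 over all features. It was largest for ATP5G3, at 0.51. If all arrays had the orientation that the labelling protocol's text names, this effect with its sign turned would be the pregnancy ratio. The members' median would then be -0.069, and ATP5E, ATP5G3 and UQCRB would be the 3 members at an unadjusted p under 0.05, all lower in pregnant animals. Under that reading limma also called 0 features at an adjusted p of 0.05, with 1704 of 18852 at an unadjusted p under 0.05 in either direction.

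**Figure D4:**
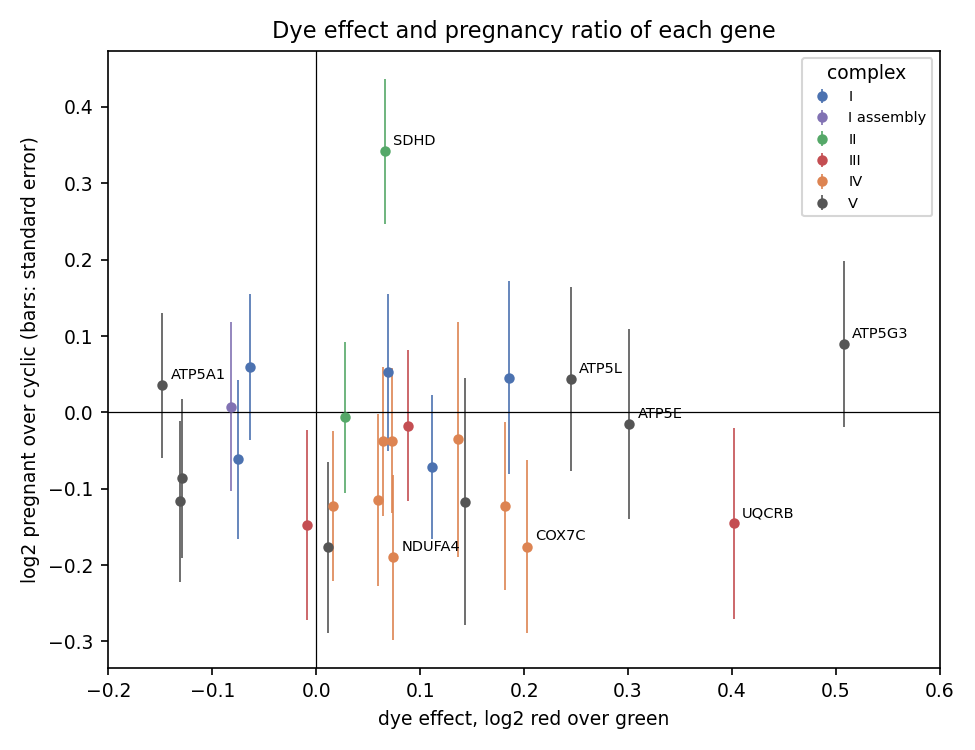
Each of the 27 genes is placed by its dye effect (log2 red over green, horizontal) and its fitted log2 ratio of pregnant over cyclic (vertical, with SE), coloured by complex. The genes spread more along the dye axis, up to 0.51 for ATP5G3, than along the pregnancy axis, where SDHD alone lies beyond 0.20.

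Every kept probe was also fitted on its own. Of the 109 kept probes 69 had a fitted ratio below 0 and 40 above it. Among all features, each read from 1 probe, 54.3% were below 0, and the share over all kept probes is not given. Genes with many probes weigh more in these counts, such as ATP5A1 with 14. The median was -0.032, against -0.0096 over all 25138 kept probes. At an unadjusted p under 0.05 there were 3 probes, where 8% of all probes were called, and 0 passed adjustment by limma. The probe of SDHD was higher, and the 2 of NDUFA4 and ATP5E, neither the brightest of its gene, were lower. Of the 21 genes with several kept probes, 14 had every probe on 1 side of 0. The exceptions were NDUFB8, NDUFV2, NDUFA4L2, SDHB, CYCS, COX6A1 and COX6B, all with fitted ratios of the gene within 0.13 of 0.

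Genes around the respiratory chain were taken from lists chosen with earlier results of these data known. The 13 measured genes of the citric acid cycle and pyruvate dehydrogenase had a median of -0.030. PC, the carboxylase that refills the cycle, gave -0.72, -1.36, -0.0024 and -0.11, low on arrays 1 and 2. CS, the citrate synthase of the cycle, gave 0.58, -0.0037, 0.18 and 0.072, highest on array 1, with 0.21 ± 0.11 from its brightest probe. Of its 7 kept probes 5 had a fitted ratio above 0 and 2 below it. Of 7 mitochondrial ribosomal proteins 2 had an unadjusted p under 0.05 by limma, 1 in each direction, where 7.21% of all features were called. Both lay at the threshold, at 0.04996 (MRPL16) and 0.04966 (MRPS18B) by limma. Each had 1 kept probe and an adjusted p of 0.647. MRPL16 was at 0.29, 0.39, 0.29 and 0.091, with 0.27 ± 0.10, and MRPS18B at -0.061, -0.49, -0.20 and -0.28, with -0.26 ± 0.10. The median of that list was -0.089.

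Carriers and porins of the mitochondrial membranes numbered 8 tested genes with a median of -0.069, and 0 were at that threshold in either direction. UCP2, an uncoupling protein, had the lowest p, at 0.33, -1.05, 0.62 and -0.87, and these ratios turned with the dye, green being above red on every array. Of 5 regulators of respiratory genes 0 were at that threshold. THRA, a thyroid hormone receptor, was at -0.17, -1.32, -0.019 and -0.23, with -0.44 ± 0.20, below 0 on 4 of 4 arrays but mainly on array 2. PPARG, a nuclear receptor of fat metabolism, was at 0.40, 0.52, 0.047 and -0.010, with 0.24 ± 0.14.

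Of 4 genes of mitochondrial gene expression 0 were at the unadjusted threshold, and TFAM, which packages mitochondrial DNA, was at 0.22 ± 0.15. The same count was 0 of 5 for mitochondrial antioxidant enzymes, with PRDX5, a peroxiredoxin, below 0 on 4 of 4 arrays at -0.12 ± 0.099. It was 0 of 3 for protein import and chaperones and 0 of 2 for electron entry by other routes. It was also 0 of 2 for assembly factors outside the name rule, PET100 at -0.16 ± 0.12 and HIGD2A at 0.076 ± 0.11, both linked to complex IV.

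**Figure D5:**
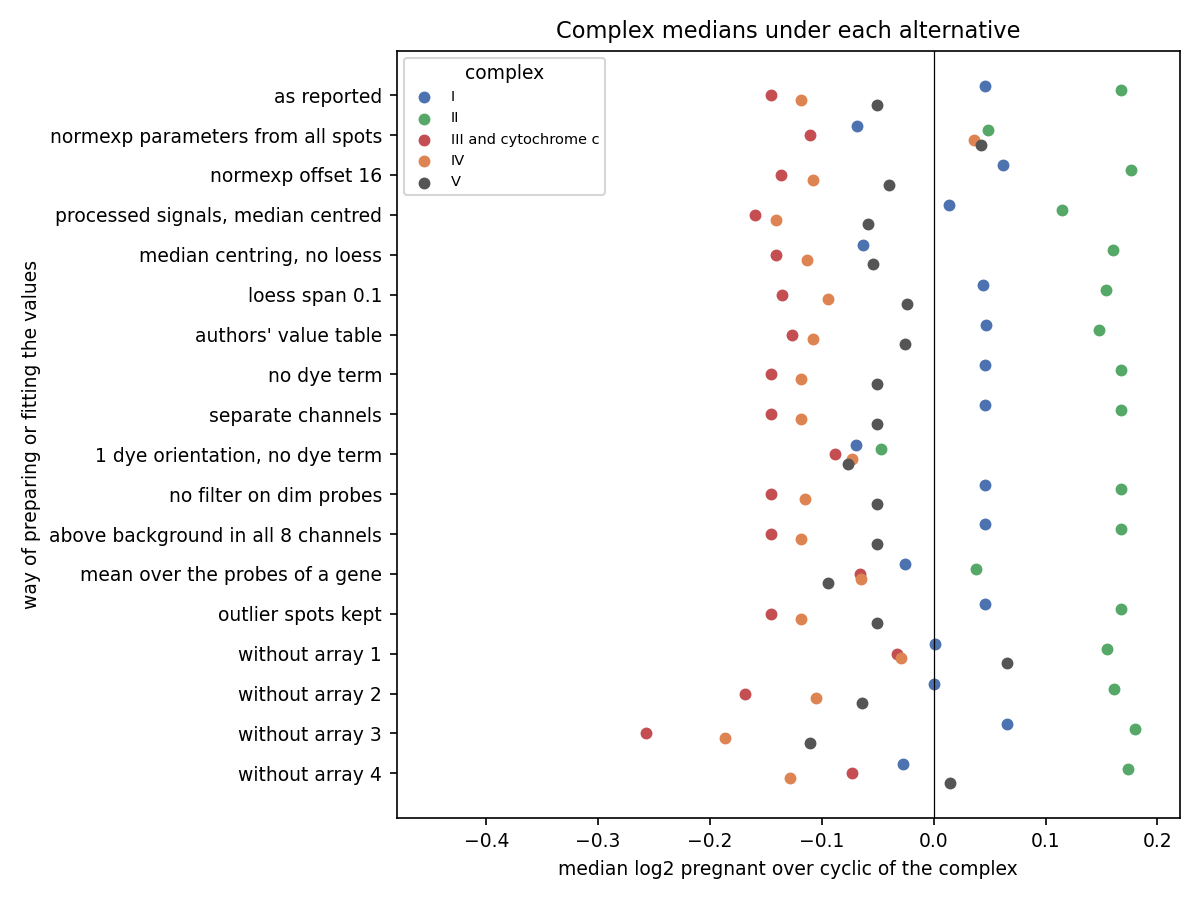
The median log2 ratio of pregnant over cyclic of each complex is plotted as reported and under each other way of preparing or fitting the values, in lines from top to bottom. Among the alternatives plotted, which keep at least 3 arrays, complex III lies below 0, complex IV is above 0 with background parameters from all spots, and complex II is below 0 with 1 dye orientation for all arrays. Complexes I and V lie on either side of 0.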

How the data were processed

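The 4 files of scanner output, 1 per array, were used. Per the file headers the authors read them with Agilent Feature Extraction 10.7.3.1. They hold deposited median intensity of spot and background in both channels, processed intensity, and a log10 ratio of processed red over green. The authors' deposited value table holds log2 ratios. It equalled log2 of processed red over green, turned to pregnant over cyclic by the label fields, within 0.001 for all 43553 probes spotted once. Its column medians were 0.150, -0.010, 0.065 and -0.073, so no further centring was found. The log10 column was not used further.

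In R 4.3.3 with limma 3.58.1, background was corrected by normexp (offset 50) on median intensities, because mean foreground is not in the files used. Its parameters were estimated without spots marked as outliers (377 to 3480 of 45220 in a channel). Loess (span 0.3, 1417 control spots at weight 0) followed. Spots marked as outliers for their own signal (26 to 63 on an array) were left out, and spots marked for their background alone were kept. Probes had to be well above background in at least 4 of 8 channels and to keep a value on all arrays. The brightest probe stood for a gene. limma's lmFit and eBayes fitted pregnant over cyclic beside a dye effect, with Benjamini-Hochberg adjustment over 18852 features. The fit was tested on simulated data. Alternatives changed the background step, centring, filter, probe rule, dye handling and arrays.

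Genes were named through RefSeq accessions of Sscrofa11.1 (6700 probes), whose symbols are partly older ones (ATP5A1, COX6B). Named in full were, per complex, the 3 genes of lowest p, the 2 of widest range, every gene at an unadjusted p under 0.05, and the isoforms, which covered nearly all. In the other lists these were genes at an unadjusted p under 0.05 and up to 3 of lowest p. The members and lists were chosen with earlier results of these data known. All 4 arrays lay on 1 slide, and their number limits precision. One gene of the citric acid cycle list is not reported here. No probe sequence was used, and no coordinates are given.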

Additional observations from a re-analysis of the deposited data

How the results depend on the processing

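No member passed an adjusted p of 0.05 under any of the 17 alternatives fitted gene by gene. SDHD stayed above 0 in 16 of them and kept an unadjusted p under 0.05 in 8, with a ratio of 0.32 to 0.36 with 1 array left out. The count of members higher at an unadjusted p under 0.05 was 0, in place of 1, with parameters from all spots, with processed signals, with median centring, with the authors' value table, with 1 dye orientation and with the mean over probes, and between 0 and 1 with 1 array left out. The lower count was 3 of 27, in place of 0, with 1 dye orientation, where 1704 of 18852 features were called in either direction. Over all features, an adjusted p of 0.05 was passed by 2 with an offset of 16 and by 3 with separate channels. Features at an unadjusted p under 0.05 numbered 1360 as reported, 2440 with separate channels, 2335 with no filter on dim probes (more features tested) and 617 to 2174 with 1 array left out (638, 617 and 2174 without arrays 1, 2 and 4).

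The complex I median was -0.069 with parameters from all spots (background spread up to 6438.6, against 2.51 as reported), with NDUFA4L2 the middle gene. It was -0.063 with median centring, where the median of all features was -0.071, and -0.069 with 1 dye orientation. In the same order of settings the complex II median was 0.048, 0.16 and -0.047, and it was 0.038 with the mean over probes. The cause was not tested. With 1 array left out, where the dye term was kept and the lone array of an orientation counted as much as the other 2 together, the medians ran from -0.027 to 0.066 for complex I, 0.16 to 0.18 for II, -0.26 to -0.033 for III, -0.19 to -0.030 for IV, -0.11 to 0.066 for V and -0.091 to -0.026 for all members. An added choice, made after the data were seen, took 1 dye orientation alone: the members' median was -0.14 on the arrays with the pregnant animal in Cy3 and 0.027 on the others. Over all features the medians were -0.038 and 0.0033 in the same order. Of the single gene values under all alternatives, 77 changed sign or moved by at least the standard deviation between arrays of that gene, and 436 did neither. The main fit was paired by array, because each of the 4 ratios compares the 2 animals of 1 array, and the labels give no further pairing.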
